A study of Mus musculus with 2 samples.

Results

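Early S1 cells are erythroid progenitors of the mouse fetal liver that already display much CD71 and still little Ter119 on their surface, and in which adult α-globin RNA is below 1% of the cell's transcripts. They were chosen by measured values. A cell was a member if it had 300 to 5000 detected genes, at most 9% mitochondrial UMIs (unique molecular identifiers, 1 per captured transcript), at most 95 counts summed over the 5 lineage antibodies, at most 24 Ter119 counts, at least 763 CD71 counts, and fewer than 1% of its UMIs from *Hba-a1* and *Hba-a2*. The rule found 447 cells of the 7863 in the data (5.68%), or 6.08% of the 7355 cells that passed the gene and mitochondrial filters. They made up 72.4% of the 617 cells in the S1 antibody gate (exact binomial 95% interval 68.7 to 75.9%).

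The cells came from pooled livers of C57BL/6 embryos at e13.5, with no treatment, transgene or mutant allele named. The study followed how regulatory elements, chromatin contacts and expression of the α-globin genes change through erythroid differentiation in vivo. CITE-seq, in which transcripts and barcoded antibodies are counted in the same cells, gave the expression side of it. There is 1 cDNA library and 1 antibody library, with 7863 cell barcodes in both, so no difference below has a replicate check and none was tested. Intervals are exact 95% Poisson or binomial intervals that cover counting error only. Cells were stained for Ter119, depleted of Ter119+ cells and then mixed with Ter119+ cells again before the other antibodies were added, so the numbers of cells per stage follow from this mixing. Neighbouring stages were gated with the same filters: S0-low (1536 cells) and S0-medium (1038 cells, CD71 239 to 762) with low Ter119, raised S1 (170 cells in the S1 gate at or above 1% α-globin), S2 (1317 cells, Ter119 25 to 88) and S3 (867 cells, Ter119 above 88).

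In the fetal liver, erythroid progenitors pass from burst-forming to colony-forming cells (BFU-E to CFU-E) and then enter terminal differentiation. In it they fill with hemoglobin and finally lose the nucleus. CD71 is the transferrin receptor, encoded by *Tfrc*, through which the cells take up iron for heme. Kit (cKit, CD117) is the receptor for stem cell factor and supports progenitor growth until it is lost at the onset of terminal differentiation. Ter119 is a surface antigen that erythroid cells gain as they mature, and CD44 is an adhesion receptor that declines as erythroblasts mature. The S1 stage holds late CFU-E cells.

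The gate and the readouts independent of it rest on short oligonucleotides carried by the antibodies, which are shown because each count of a surface protein below is a count of one of these barcodes (5′ to 3′, in capitals throughout, since all of their bases identify the antibody).
CD71: CGAAGAAGGAGT
Ter119: GAGGCGATTGAT
cKit: AAGCGCTTGGCA
CD44: GTCTAGACTTCG
IgG control: CGGAGTAGTAAT
The first of these set the lower limit of the gate and the second its upper limit, while cKit, CD44 and the control were not used. The IgG barcode was the closest to that of CD71, with 4 mismatches over the same positions, and the other 8 barcodes had between 7 and 11. Early S1 cells had a median of 0 IgG counts and at most 2, beside a median of 1079 CD71 counts.

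The RNA limit rests on the duplicated adult α-globin genes, and *Kit* is one of the few genes past the fold limit below, so the 250 bases before the start of *Hba-a1* and of *Kit* are shown as RefSeq gives them on GRCm38.p6. Capitals mark the letters GATA or their reverse complement, the core bound by GATA factors such as the erythroid one. They also mark CACCC or its reverse complement, the core of sites of KLF factors, and the searches on both strands gave no overlap between these motifs.
Hba-a1, chr11:32283422-32283671, plus strand: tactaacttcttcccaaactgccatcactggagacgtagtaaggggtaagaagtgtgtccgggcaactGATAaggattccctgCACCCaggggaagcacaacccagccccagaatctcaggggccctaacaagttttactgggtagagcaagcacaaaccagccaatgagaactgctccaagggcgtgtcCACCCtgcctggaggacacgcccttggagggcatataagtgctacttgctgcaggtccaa
Kit, chr5:75574737-75574986, plus strand: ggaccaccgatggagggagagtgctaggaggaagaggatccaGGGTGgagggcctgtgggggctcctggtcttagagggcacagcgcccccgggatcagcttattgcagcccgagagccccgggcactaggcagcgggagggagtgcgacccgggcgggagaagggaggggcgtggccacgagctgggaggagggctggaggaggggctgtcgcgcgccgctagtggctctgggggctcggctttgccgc
The *Hba-a1* stretch held 1 GATA and 2 CACCC matches, and that of *Kit* 0 and 1. Of the 27025 promoters of this length, 54.1% held GATA and 51.3% held CACCC, so these matches are a description of the letters and not of binding. The stretch of *Hba-a2* (chr11:32296242-32296491) was identical to that of *Hba-a1* at 247 of 247 aligned bases, shifted by 3. The transcripts of both copies are nearly alike as well, so reads can be split between them by counting, and the sum is used for the limit. On this build *Hba-a1* lies on chromosome 11 from 32283672 to 32284486, *Hba-a2* from 32296492 to 32297310, *Kit* on chromosome 5 from 75574987 to 75656722 and *Tfrc* on chromosome 16 from 32608896 to 32632794.

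α-globin RNA in early S1 cells overlapped the level of free RNA and reached above it. The median cell had 45 α-globin UMIs, or 0.418% of its transcripts (quartiles 0.276 to 0.577%, range 0.124 to 0.993%). As a measure of free RNA, 149 hepatocyte-like cells of the same library (CD71 below 239 and at least 2% of UMIs from 10 hepatocyte marker genes), which should not express globin, had a median of 0.191% and a highest value of 0.423%, at a median depth of 12378 UMIs per cell beside 11328 in early S1. Of the early S1 cells, 219 (49%) lay above the highest of these reference cells and 396 (88.6%) above their upper quartile of 0.23%, while 26 (5.82%) lay below their median. The cells were spread over the range below the limit and not gathered at one level, with 30 cells from 0.1 to 0.2%, 102 from 0.2 to 0.3%, 77 and 79 in the next steps of 0.1%, and 23 from 0.9 to 1%. The median share was 0.2% in S0-low, 0.258% in S0-medium, 1.78% in raised S1, 3.41% in S2 and 11% in S3, and these values describe the stages, since the rule used this measure. Adult β-globin RNA (*Hbb-bs* and *Hbb-bt*), which the rule did not use, had a median share of 0.983% in early S1. It was 0.688% in S0-medium, 4.26% in raised S1 and 0.574% in the reference cells. Over the 447 cells the shares of adult α- and β-globin had a Spearman correlation of 0.84. Both come from the same library and share the cell's UMI total as their denominator.

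**Figure D1:**
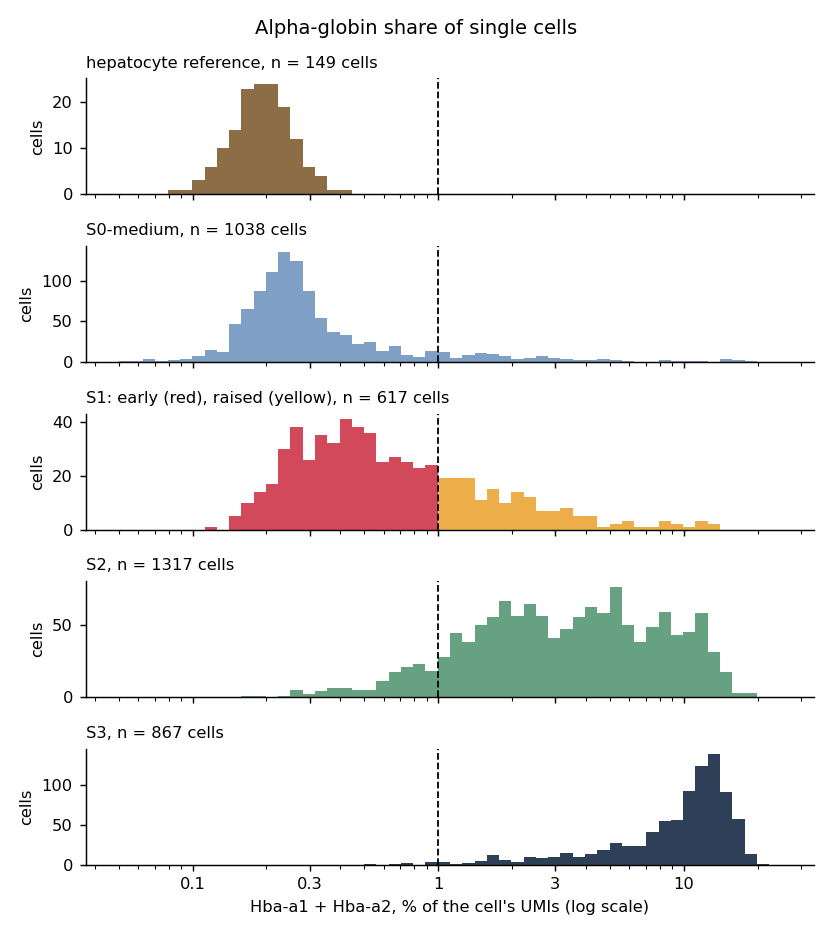
Histograms of the share of each cell's UMIs that came from *Hba-a1* and *Hba-a2* (x axis, percent, log scale; y axis, number of cells) in hepatocyte-like reference cells, S0-medium, S1, S2 and S3, with a dashed line at the limit of 1%. Early S1 cells (red, median 0.418%) overlap the reference cells (median 0.191%) on their left and run without a gap into raised S1 cells (yellow).

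On the surface, early S1 cells had a cKit level between those of S0-medium and raised S1, and more CD44 than the other gated stages. CD71 had a median of 1079 counts (quartiles 901 to 1361) and Ter119 of 12 (9 to 16), both fixed by the gate. cKit, which was not part of the gate, had a median of 131 counts (quartiles 75.5 to 240, range 13 to 1060). It was lower than in S0-low (256) and S0-medium (219, quartiles 84.2 to 401) and higher than in raised S1 (29, quartiles 17.2 to 45.8), S2 (23) and S3 (17), and the hepatocyte-like cells gave a background of 20. The interquartile ranges of early and raised S1 cells did not overlap, although both came from the same CD71 and Ter119 gate, whereas early S1 and S0-medium overlapped widely. CD44 had a median of 235 counts in early S1 (quartiles 175 to 306), beside 150 in S0-low, 184 in S0-medium, 130 in raised S1, 122 in S2 and 80 in S3, with a background of 20. The other stages had no α-globin limit, and held below 1% S0-medium had a median of 195 and S2 one of 257, so CD44 was not highest in early S1 among cells below the limit. The 5 lineage antibodies, limited by the gate, summed to a median of 38.

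**Figure D2:**
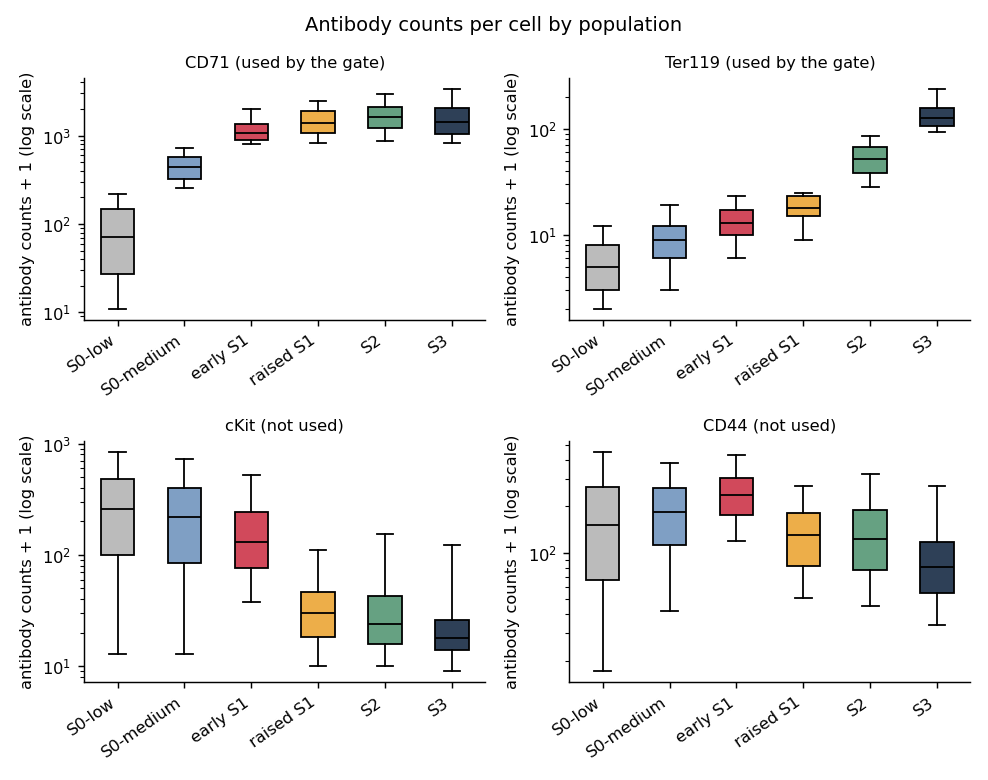
Antibody counts per cell plus 1 (y axis, log scale) by population, with boxes for the quartiles, a line for the median and whiskers from the 5th to the 95th percentile of cells. CD71 and Ter119 were used by the gate, cKit and CD44 were not, and early S1 cells (red) hold median counts of 131 for cKit and 235 for CD44 where raised S1 cells hold 29 and 130.

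The genes that mark the population were checked in its RNA, given as pooled CPM, the UMIs of a gene over all cells of a population per 1000000 UMIs. *Tfrc* stood at 202 CPM in early S1 (83.2% of cells with a UMI, beside 23.5% of the hepatocyte-like cells). The earlier stages had 90.3 CPM (S0-low) and 169 CPM (S0-medium) and the later ones 338 CPM (raised S1), 316 (S2) and 303 (S3), so its level in early S1 lay between those of the stages on either side. *Kit* stood at 11.6 CPM (11.9% of cells with a UMI, beside 0.671% of the hepatocyte-like cells), after 60.8 CPM (S0-low) and 33.2 CPM (S0-medium) and before 0.874, 5.06 and 6.11 CPM in raised S1, S2 and S3. The RNA of *Kit* was thus detected above background but rested on 60 UMIs in the 447 cells, while the cKit antibody still gave a median of 131 counts. *Cd44* RNA was at 40.6 CPM (210 UMIs, 35.3 to 46.4), beside 47.5 CPM in S0-medium, and the CD44 antibody was higher in early S1. In S0-medium cells below 1% α-globin *Cd44* was at 48.8 CPM (44.6 to 53.3). These counting intervals overlapped, so a lower RNA level in early S1 is not shown. Both genes named as markers of the population were thus detected in it.

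The cells next to each limit were compared as a description. The 23 cells from 0.9 to 1% α-globin had a median of 51 cKit counts and the 16 cells from 1 to 1.1% one of 79, with 1344 and 1683 CD71 counts. The 63 cells up to 10% above the CD71 limit had a median α-globin share of 0.342% and 148 cKit counts, and the 82 cells up to 10% below it 0.303% and 202. The 22 cells with 23 or 24 Ter119 counts had 0.639% α-globin and 99.5 cKit counts, and the 28 cells with 25 or 26 had 0.736% and 88.5.

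Among abundant transcripts, the largest UMI totals of early S1 cells outside ribosomal protein and mitochondrial genes belonged to *Ptma* (8047 CPM), which encodes the nuclear protein prothymosin alpha, *Hbb-bs* (7131 CPM), the histone gene *H2afz* (5841 CPM), the ferritin chains *Fth1* and *Ftl1* (5501 and 5223 CPM) and *Npm1* (4449 CPM), which encodes the nucleolar protein nucleophosmin. *Fth1* and *Ftl1*, which store iron, had been at 4646 and 4465 CPM in S0-medium and were at 8334 and 8226 CPM in raised S1. *Car2*, which encodes the carbonic anhydrase of red cells, was at 3040 CPM in early S1, 2204 in S0-medium and 5837 in raised S1.

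Few genes passed 2-fold between early S1 and S0-medium cells, although CD71 on the surface was by construction higher. Of 8594 genes with at least 50 UMIs in the pair, 1 was at least 2-fold higher in early S1 (0.0116% of genes tested) and 2 were at least 2-fold lower (0.0233%), by the ratio of CPM after adding 10 CPM to both, which understates the ratio of genes at low CPM. *Apol8*, an apolipoprotein L gene on chromosome 15 from 77745109 to 77757062, was at 13.3 CPM in S0-medium and 38.6 in early S1, 2.90 times as high (2.33 to 3.62), and went on to 115 CPM in raised S1. The 2 lower genes were *Gm15915*, from 89.0 to 29.0 CPM (ratio 0.326, 0.272 to 0.387), and *Kit*, from 33.2 to 11.6 CPM (ratio 0.349, 0.261 to 0.459), which stood at the limit itself. *Kit* was no longer past it without doublets, nor was *Apol8* with an α-globin limit of 0.5%, whereas *Gm15915* was in both. At 1.5-fold, 36 genes were higher (0.419%) and 48 lower (0.559%), while the median log2 ratio of all genes was -0.04. S0-medium had no α-globin limit, and 99 of its cells (9.54%) were at or above 1%. Against the 939 S0-medium cells below 1%, 5 of 8570 genes were at least 2-fold higher in early S1 (0.0583%) and 4 lower (0.0467%), where *Slc4a1*, *Sgk3* and *Trim10* were among those that joined *Apol8*, and *Gna15* and *Syngr2* joined the lower genes.

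Of the 15 genes with the highest ratios to S0-medium, 11 were at a higher CPM again in raised S1, as were 26.7% of the 8594 genes. The other 4 were *Meg3*, a long noncoding RNA (30.1 CPM in early S1 and 6.12 in raised S1), and the hepatocyte genes *Ttr* (44.1 CPM in S0-medium and 90.2 in early S1), *Apoa2* (66.1 and 115) and *Serpina1b* (19.8 and 39.2). Without the 4 early S1 and 4 S0-medium cells at or above 1% of hepatocyte marker UMIs, *Ttr* was at 22.1 and 17.4 CPM, the opposite order, and *Apoa2* at 35.2 and 36.9. *Slc4a1*, which encodes the anion exchanger band 3, the main integral protein of the red cell membrane, was at 31.6 CPM in S0-medium and 70.3 in early S1 (ratio 2.23, 1.92 to 2.59). *Hemgn*, a nuclear protein gene of hematopoietic cells, went from 222 to 391 CPM, and *Trim10*, a ubiquitin ligase gene of erythroid cells, from 99 to 177 CPM. *Sox6*, a transcription factor of definitive erythropoiesis, went from 20.9 to 39.8 CPM (1.90, 1.56 to 2.31), *Epb42*, which encodes the membrane skeleton protein 4.2, from 41.7 to 74.5 CPM and *Btg2*, an antiproliferative gene, from 32.3 to 61 CPM. *Acp5*, tartrate-resistant acid phosphatase, was at 150 and 283 CPM, and *Sgk3*, a kinase, at 28.8 and 65.5 CPM. *Redrum*, a long noncoding RNA of erythroid cells, was at 45.5 CPM in S0-medium and 82.1 in early S1, and was listed at 0 UMIs in the hepatocyte-like cells.

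Of the 15 genes with the lowest ratios, 13 had been at a higher CPM in S0-low than in S0-medium (49.7% of all 8594 genes had), and all 15 were at a lower CPM in raised S1 than in early S1 (73.3% of all). These counts use populations of the ratio that chose the genes and are descriptions. *Myb*, the transcription factor that keeps progenitors dividing and undifferentiated, was at 141 CPM in S0-low cells and then at 65.1 CPM (S0-medium), 30.5 (early S1) and 8.74 CPM (raised S1). *Cdk6*, a kinase partner of D-type cyclins, was at 260, 146, 76.1 and 18.4 CPM in the same order. *Ifngr1*, the interferon gamma receptor, was at 69.7 and 31.3 CPM in S0-medium and early S1, *Gna15*, a G protein alpha subunit, at 25 and 7.72, *Hdac7*, a histone deacetylase, at 30.5 and 11.2, and *Syngr2*, a vesicle membrane protein, at 77.7 and 34.4. *Myc* was at 154, 117, 73.6 and 37.6 CPM from S0-low to raised S1. *Gata2* and *Cd34*, which mark earlier progenitors, were already at 2.14 and 1.68 CPM in S0-medium, after 33.8 and 67.3 CPM in S0-low, and were at 0.965 and 2.9 CPM in early S1.

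**Figure D3:**
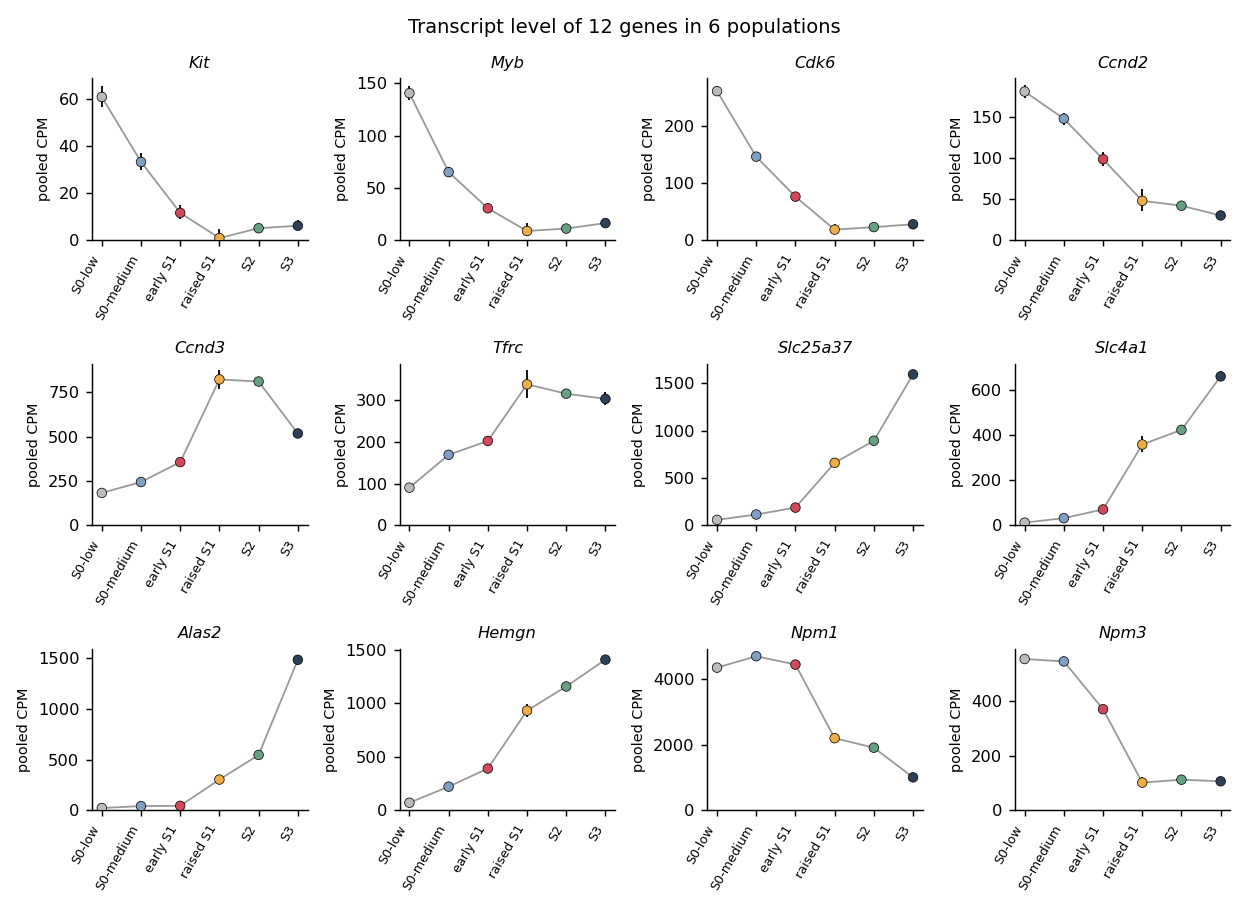
Pooled CPM (y axes, linear, from 0) of 12 genes in 6 populations ordered by gate (x axes), with vertical bars for the exact 95% Poisson interval of counting. Early S1 (red) lies between S0-medium and raised S1 in most panels, and for *Alas2* it is at 45 CPM where raised S1 is at 303 and S0-medium at 42.5, or at 24.2 without its cells at or above 1% α-globin, which the plot includes.

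Gene lists were chosen with earlier results of these data known, and their counts are descriptions. Of the 9 heme synthesis genes, all 9 had log2 ratios above 0 in early S1 over S0-medium (median 0.33, beside -0.04 over all genes), and none passed 2-fold. *Uros*, uroporphyrinogen synthase, was at 66.6 and 112 CPM, *Fech*, ferrochelatase, which inserts iron into the ring, at 373 and 520 CPM, and *Cpox*, coproporphyrinogen oxidase, at 629 and 826 CPM. *Alas2*, the erythroid form of the first and rate-limiting enzyme, was at 42.5 CPM in S0-medium and 45 in early S1 (ratio 1.06, 0.9 to 1.24), and 36% of early S1 cells had a UMI of it beside 20.1% of the hepatocyte-like cells, in which it reached 20.1 CPM. The ratio of *Alas2* depended on the S0-medium cells with more α-globin, since in the 939 S0-medium cells below 1% *Alas2* was at 24.2 CPM (21.3 to 27.3), apart from the 45 CPM of early S1 (39.4 to 51.2). *Alas2* then stood at 303 CPM in raised S1, 545 in S2 and 1480 in S3.

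Among 10 genes of heme and mitochondrial iron transport, 9 were above 0 (median 0.26). *Slc25a37*, mitoferrin-1, which brings iron into mitochondria, was at 114 CPM in S0-medium and 187 in early S1 (1.64, 1.51 to 1.79), and *Abcb10*, its mitochondrial partner, at 73.9 and 120. Of 13 tested genes of iron uptake and storage (14 listed), 7 were above 0 (median 0.02), and *Tfrc* had the highest ratio of them, 0.25 on the log2 scale. Of 13 tested red cell membrane protein genes (15 listed), 12 were above 0 (median 0.29), with *Rhd* and *Rhag*, of the Rh complex, at 257 and 107 CPM in S0-medium and 331 and 133 in early S1. Of 10 membrane skeleton genes, 7 were above 0 (median 0.27), among them the spectrin gene *Sptb* (35.9 and 51 CPM). None of the genes in these lists passed 2-fold, and 5 of them were at least 1.5-fold higher, where 0.419% of all tested genes were.

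Of 17 erythroid transcription factor genes, 11 were above 0 and the median was 0.06. With means over cells of CPM, 8 were above 0 and the median was -0.02. At least 1.5-fold higher was 1 of the 17, *Sox6* (20.9 and 39.8 CPM), where 0.419% of all tested genes were. *Gata1*, the central erythroid factor, was at 186 CPM in S0-medium and 202 in early S1 (1.08, 1 to 1.17), *Klf1* at 541 and 602, *Tal1* at 132 and 137 and *Lmo2* at 406 and 425. *Epor*, the erythropoietin receptor, was at 150 and 164 CPM, and of the 12 tested genes of its list 7 were above 0 (median 0.06). With means over cells of CPM, 5 genes of that list were above 0 (median -0.04). *Stat5a*, a transducer of its signal, had the lowest ratio of that list, at 27.1 and 16.2 CPM. Of 7 tested progenitor transcription factors (15 listed), 6 were below 0 (median -0.25). The chromatin architecture genes, among them *Ctcf* (129 and 120 CPM) and the cohesin gene *Rad21* (94.4 and 99.6 CPM), had a median of -0.02 over 11 genes (0.14 as UMIs per cell), and none passed 1.5-fold.

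Of the genes listed for S phase, for mitosis and for ribosome biogenesis, none was past 1.5-fold between early S1 and S0-medium. Of 26 S phase genes 24 were above 0 (median 0.22), with *Rrm2*, a subunit of ribonucleotide reductase, at 499 and 689 CPM, *Pcna*, the sliding clamp of replication, at 191 and 240 and *Mcm2*, of the replicative helicase, at 188 and 222. Of 26 genes of G2 and mitosis 23 were above 0 (median 0.18), with *Mki67* at 189 and 233 CPM and *Aurka* at 107 and 140. The D-type cyclins differed from each other, since *Ccnd3* was at 244 and 356 CPM (1.46, 1.38 to 1.55) and *Ccnd2* at 148 and 98.9 (0.666, 0.602 to 0.736). Of 20 ribosome biogenesis genes 19 were below 0 (median -0.24), though on the scale of UMIs per cell 6 were above it and the median was -0.09. *Npm1* was at 4704 and 4449 CPM, and its ratio was above 0 per cell (log2 0.08). As UMIs per cell the median of all genes moved by 0.12 to 0.07, because early S1 cells had a median of 11328 UMIs and S0-medium cells of 10330, and the medians of heme synthesis, S phase and mitosis genes were above 0 on that scale too.

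**Figure D4:**
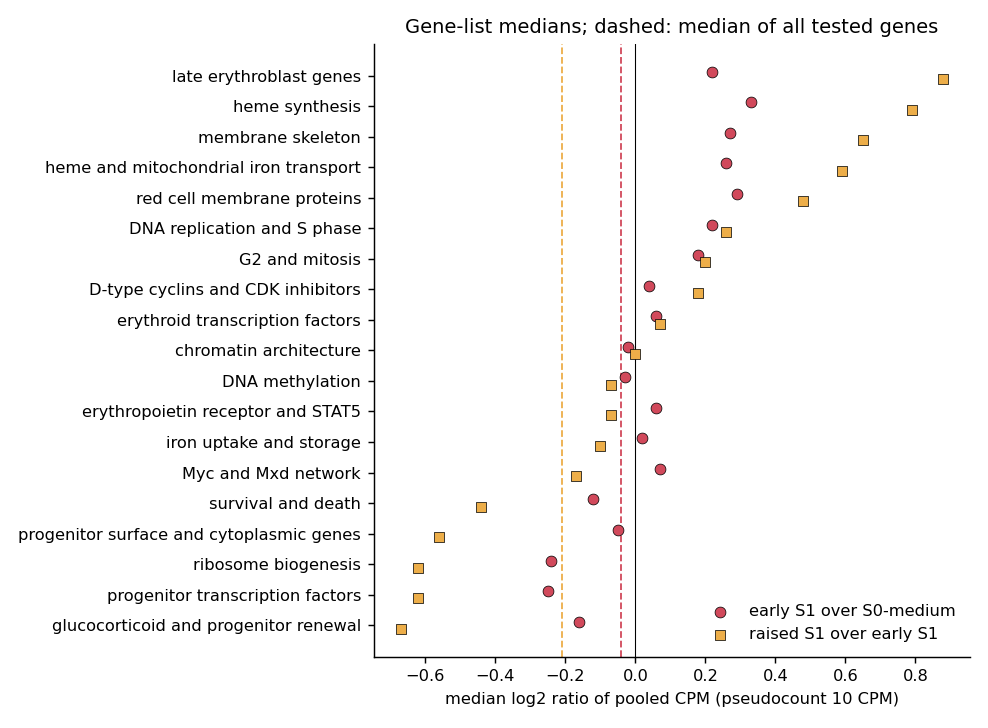
Median log2 ratio of pooled CPM plus 10 CPM (x axis) for 19 gene lists (y axis) in early S1 over S0-medium (red circles) and in raised S1 over early S1 (yellow squares), with dashed lines at the medians of all tested genes, -0.04 and -0.21. Heme synthesis sits at 0.33 and 0.79, ribosome biogenesis at -0.24 and -0.62.

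Raised S1 cells came from the same antibody gate, and the split between them and early S1 is the α-globin limit itself, so what follows describes what lay on either side of it. Of 6968 tested genes, 56 were at least 2-fold higher in raised S1 (0.804%) and 155 lower (2.22%). With an α-globin limit of 0.5% these counts were 33 and 22, and with one of 2% they were 112 and 837. All 9 tested hepatocyte markers had log2 ratios below 0 (median -0.89), with 3 at least 2-fold lower. Without cells at or above 1% of hepatocyte marker or *Hbb-y* UMIs, 55 genes were higher and 144 lower. The other globin genes were higher, with *Hbb-bs* at 7131 CPM in early S1 and 37132 in raised S1 and *Hbb-bt* at 4278 and 20235. *Alas2* was at 45 and 303 CPM (ratio 6.74, 5.69 to 7.99), *Slc4a1* at 70.3 and 358 (5.10, 4.42 to 5.89), *Slc25a37* at 187 and 661 (3.53, 3.21 to 3.89) and *Btg2* at 61 and 228 (3.74, 3.16 to 4.42). *Hbq1b*, a globin-like gene of the α-globin cluster, was at 12.7 and 99.6 CPM, whereas *Nprl3*, whose introns hold enhancers of the cluster, was at 12.9 and 14 (1.08, 0.585 to 1.89) and its neighbour *Mpg*, a DNA repair gene, at 42.9 and 61.2.

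All 20 ribosome biogenesis genes were lower in raised S1 than in early S1 (median log2 -0.62, against -0.21 for all genes). Of the 20, 2 were past 2-fold, where 2.22% of all tested genes were at least 2-fold lower. Single genes with low ratios are named here by the size of the ratio or as list members. *Npm3*, a nucleophosmin family gene on chromosome 19 from 45747734 to 45749565, was at 369 CPM in early S1 and 101 in raised S1 (0.275, 0.226 to 0.332), and *Srm*, spermidine synthase, at 546 and 190 (0.347, 0.301 to 0.399). *Cdk6* was at 76.1 and 18.4 CPM, *Tagln2*, an actin-binding protein, at 127 and 29.7, *Ppif*, mitochondrial cyclophilin, at 92.7 and 26.2 and *Slc19a1*, a folate carrier, at 78 and 22.7. *Kit* had 60 UMIs in early S1 and 1 in raised S1, a ratio of 0.0754 with a counting interval from 0.00188 to 0.437. *Ccnd3* was at 356 and 822 CPM and *Ccnd2* at 98.9 and 48.1, the same order as from S0-medium to early S1. The inhibitors of cyclin-dependent kinases *Cdkn2d* and *Cdkn2c* were at 24.1 and 31.9 CPM in early S1 and at 90.9 and 89.1 in raised S1, whereas *Cdkn2d* had been at 22.6 CPM in S0-medium. *Pim1*, a kinase gene downstream of STAT5, was at 106 CPM in early S1, 105 in S0-medium and 304 in raised S1.

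Cells on either side of the α-globin limit also differed in depth, with a median of 11328 UMIs and 3092 genes in early S1 and 5821 UMIs and 1875 genes in raised S1, and the part of depth in these ratios was not tested. Counted as UMIs per cell, the median of all genes moved by -0.56, to -0.78, and 12 genes were at least 2-fold higher and 1791 lower. On that scale heme synthesis genes had a median of 0.03 and 4 of 8 were above 0, S phase genes had one of -0.48, so that their higher CPM turned into fewer UMIs per cell, and *Tfrc* was at -0.04. Relative to the median of all genes, heme synthesis stood 1 log2 unit higher in CPM and 0.81 higher per cell, and ribosome biogenesis 0.40 lower in CPM and 0.52 lower per cell. *Alas2*, *Slc4a1*, *Slc25a37*, *Btg2* and *Ccnd3* were higher in raised S1 on both scales.

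S2 cells are the stage after S1 by Ter119 and had a median of 6056 UMIs. Of 8157 tested genes, 103 were at least 2-fold higher in S2 than in early S1 (1.26%) and 123 lower (1.51%). *Alas2* was at 45 CPM in early S1 and 545 in S2, *Slc4a1* at 70.3 and 423, *Fn3k*, a kinase that repairs glycated proteins, at 2.51 and 48.7 and *Ube2l6*, a ubiquitin-conjugating enzyme, at 79.4 and 379. *Npm3* was at 369 and 112 CPM, *Npm1* at 4449 and 1913 and *Rrp15*, a ribosome biogenesis factor, at 187 and 61.4. The 20 ribosome biogenesis genes were again all lower in S2 (median -0.81, with 3 past 2-fold, against -0.25 for all genes), also per cell. With the globin genes left out of the denominator, 156 genes were higher and 47 lower, so the balance of the calls depended on the globin RNA that fills later cells. Between neighbouring stages, 4.1% of genes passed 2-fold from S0-low to S0-medium, 0.0349% from S0-medium to early S1, 3.03% from early to raised S1, 0.0407% from raised S1 to S2 and 1.5% from S2 to S3. The step from early to raised S1 was defined by RNA, and those from S0-low to S0-medium and from S2 to S3 by antibodies. The steps from S0-medium to early S1 and from raised S1 to S2 joined an antibody border with the α-globin limit on the S1 side only. These shares are therefore not of like comparisons. They depend on the scale as well, since with a pseudocount of 1 CPM 12 genes were higher and 49 lower from S0-medium to early S1. S0-low also held other cells, with 112 of its 1536 cells at or above 1% of hepatocyte marker UMIs (4 in S0-medium) and myeloid markers at 589 CPM beside 80.5, and their part in the first step was not tested.

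Few genes passed 2-fold between early S1 and S2 when S2 was held to the same α-globin limit. The 127 S2 cells below 1% (9.64% of S2) had more Ter119 than early S1 by construction (median 31 beside 12 counts). Of 7164 genes, 2 were at least 2-fold higher in them than in early S1 (0.0279%) and 0 were lower (0%). The higher genes were *Slc4a1*, at 70.3 CPM in early S1 and 160 in these S2 cells, and *Hbq1b*, at 12.7 and 38.8 CPM. These S2 cells lay closer to the limit, with a median α-globin share of 0.698% beside 0.418%. Their cKit antibody had a median of 91 counts beside 131 in early S1, and their CD44 antibody of 257 beside 235.

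S0-medium, early S1 and S2 cells were then compared in bands of equal α-globin share. Below 0.3% α-globin, the median cKit count was 321 in 669 S0-medium cells, 252 in 132 early S1 cells and 257 in 9 S2 cells. From 0.3 to 0.6% it was 124 in 216 S0-medium cells, 128 in 211 early S1 cells and 162 in 31 S2 cells. From 0.6 to 1% it was 35.5 in 54 S0-medium cells, 69.5 in 104 early S1 cells and 78 in 87 S2 cells. The order by α-globin was therefore the same in each antibody gate. *Ccnd3* RNA was at 196, 282 and 541 CPM over the bands in S0-medium, at 234, 370 and 547 in early S1 and at 211, 396 and 599 in S2. *Slc4a1* was at 11.3, 33.6 and 161 CPM in S0-medium, at 22.8, 65.2 and 170 in early S1 and at 64.4, 114 and 192 in S2. *Npm3* was at 591, 480 and 235 CPM in S0-medium, at 484, 343 and 221 in early S1 and at 368, 371 and 222 in S2. For *Ccnd3*, *Slc4a1* and *Npm3* the counting intervals of S0-medium and early S1 were apart in both lower bands and overlapped in the highest. *Cdk6* and *Ccnd2* were apart in the highest band, *Cdk6* at 64.4 CPM in S0-medium (39.3 to 99.4) and 25.7 in early S1 (16.6 to 37.9), with 65.2 in S2 (50.3 to 83.1), and *Ccnd2* at 142 (103 to 190) and 68.8 (53.3 to 87.4), with 69.2 in S2. *Apol8* was at 7.81, 21.4 and 29 CPM over the bands in S0-medium and at 20.6, 39.5 and 69.8 in early S1. Depth differed as well, since the S0-medium cells of the highest band had a median of 4272 UMIs and the early S1 cells of 9647.

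**Figure D5:**
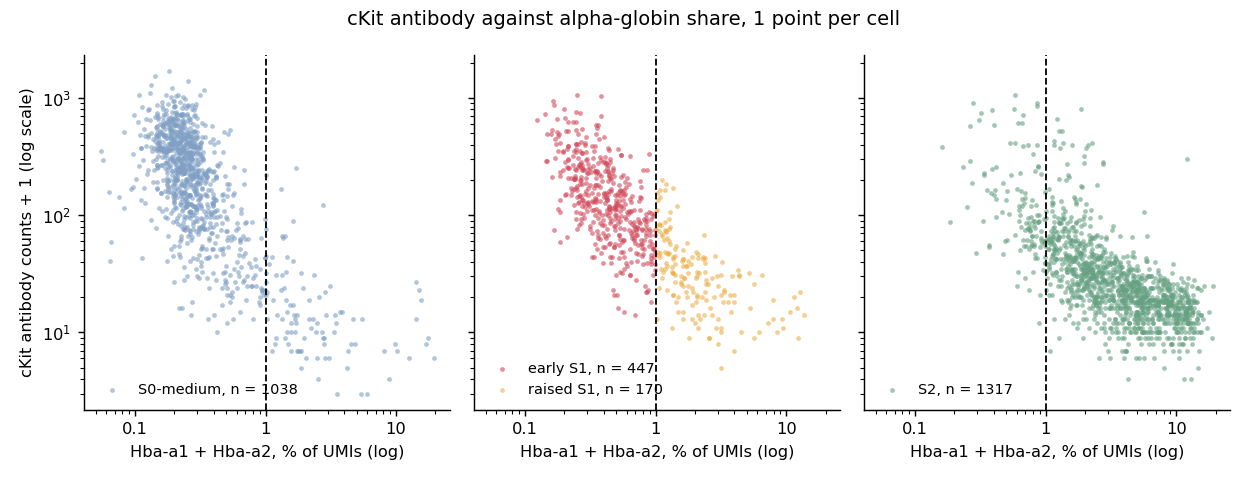
cKit antibody counts plus 1 (y axis, log scale) against the α-globin share of UMIs (x axis, percent, log scale), 1 point per cell, in S0-medium, S1 (early red, raised yellow) and S2, with a dashed line at 1%. In each panel cells with more α-globin have fewer cKit counts, and the median falls from 252 to 69.5 counts across the bands of early S1.

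Early S1 cells were not uniform. Over the 447 cells the α-globin share had a Spearman correlation of -0.64 with cKit counts, -0.42 with CD44, 0.29 with CD71 and 0.35 with Ter119, where all are from the same cells and the share also correlated with depth (-0.34). cKit and CD44 counts correlated with each other (0.67) and cKit with UMIs per cell (0.47), so staining and depth move together here and their parts were not tested. From the 132 cells below 0.3% to the 104 cells from 0.6 to 1% α-globin, the median CD71 count went from 970 to 1227, that of CD44 from 286 to 181 and that of UMIs per cell from 12918 to 9647.

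RNA followed the α-globin share inside the population. Of 5292 genes with at least 50 UMIs in the highest and lowest band, 34 were at least 2-fold higher in the cells from 0.6 to 1% (0.642%) and 77 lower (1.46%), beside the 1 and 2 genes between early S1 and S0-medium. These bands were cut on a measure of the rule, so the values are descriptions, and bands and whole stages are not like comparisons. Among the lower genes were 4 of 7 tested hepatocyte markers (median -1.11). Without cells at or above 1% of hepatocyte marker UMIs, the median of these markers was 0.13. On the same cells, 33 genes were at least 2-fold higher and 74 lower. *Slc4a1* was at 22.8 CPM in the lowest band, 65.2 in the middle and 170 in the highest, *Alas2* at 30.6, 39 and 86.3 and *Ccnd3* at 234, 370 and 547. *Cdk6* was at 122, 61.9 and 25.7 CPM, *Myb* at 49, 24.1 and 12.3, *Kit* at 20, 9.14 and 2.05, *Npm3* at 484, 343 and 221 and *Npm1* at 4759, 4601 and 3504. All 8 tested heme synthesis genes were above 0 (median 0.75, against -0.12 for all genes), and of 18 ribosome biogenesis genes none was (median -0.53). *Tfrc* RNA was at 196, 194 and 235 CPM, and *Epor* at 149, 169 and 178, so neither passed the fold limit across the bands.

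Early S1 cells were also divided by CD71, which the gate cuts off below 763, and by cKit, which it does not use. The medians of the cells compared were 851 and 1515 CD71 counts and 60 and 296 cKit counts, a wider span for cKit, so the counts of genes are not of like comparisons. Between the 149 cells of highest and the 149 of lowest CD71, 0 of 5765 genes were at least 2-fold higher (0%) and 1 was lower (0.0173%), *St6galnac4*, a sialyltransferase gene, at 45.7 CPM in the lowest and 16.4 in the highest. Between the 149 cells of highest and the 149 of lowest cKit, 16 of 5774 genes were higher (0.277%) and 33 lower (0.572%). In the highest *Myb* was at 50.9 CPM and *Cdk6* at 111, against 15.6 and 38.6 in the lowest, while *Slc4a1* was at 24.5 and 145 CPM. Many of the 33 lower genes were hepatocyte genes from 3 cells with at least 1% of hepatocyte marker UMIs among those of low cKit. Without those cells 22 genes were higher and 18 lower. The median α-globin share was 0.273% in the cells of highest and 0.632% in those of lowest cKit, and depth was 12833 and 9178 UMIs.

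Markers of other cell types were low in early S1, with hepatocyte genes as the exception. The 10 hepatocyte markers summed to 851 CPM, beside 530 in S0-medium, 9113 in S0-low, 413 in raised S1, 448 in S2, 1049 in S3 and 89040 in the hepatocyte-like cells, with *Afp* as the most abundant. Of their 4408 UMIs in early S1, 71.9% lay in 4 cells in which these genes made up at least 1% of UMIs, and 33% in 1 cell. Without those 4 cells, *Alb*, *Afp* and *Ttr* were at 51.4, 77.8 and 17.4 CPM, beside 53.3, 84.5 and 22.1 in S0-medium treated alike. With them, *Ttr* was at 90.2 CPM in early S1 and 44.1 in S0-medium. Of the 10 markers, 5 were then at least 1.5-fold higher, where 0.419% of all tested genes were. The 10 megakaryocyte markers summed to 51.0 CPM (46.3 in S0-medium and 52.6 in the hepatocyte-like cells), with *Gp9* as the most abundant and none at 0. The 10 granulocyte and myeloid markers summed to 70.7 CPM (80.5 and 86.3), led by *S100a8*, and the 10 macrophage markers to 10.8 CPM (12.4 and 166), led by *C1qc* with 2 genes at 0. Mast cell and lymphoid markers each summed to 0.965 CPM, with 5 of 8 and 6 of 8 genes in the data at 0. Endothelial and stellate markers summed to 40.2 CPM, of which *Dlk1*, also a hepatoblast gene, was the most abundant. The part of these cells in the results was not tested beyond leaving them out. Of the early S1 cells, 5 (1.12%) were called doublets, beside 1.63% of all cells.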

How the data were processed

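The authors counted transcripts with Cell Ranger on mm10 and antibody barcodes with CITE-seq-Count, and deposited both tables as raw counts for each cell (UMI counts for genes), before their doublet and quality filters. Whether antibody counts were collapsed to molecules is not given in the sources used here, so they may be reads. Neither was normalized, and they hold 58606632 UMIs over 7863 cells and 27998 genes. Cells were gated on the antibody counts, S0-medium from the CD71 border of k-means in 3 classes. UMIs of a population were pooled to CPM, and a ratio past 2-fold was taken after adding 10 CPM to both sides, among genes with at least 50 UMIs in the pair. With 1 library no test was run. Doublets were called with Scrublet (expected rate 6%) and kept, as the rule has no doublet filter. Genes were named if antibody targets, list members, among the 15 highest or lowest ratios of a comparison, most abundant, or highest in early S1 among the stages. Some genes that the rule names are not reported here. Genes of the bands within early S1 were named with their values seen. The members and the 30 gene lists were chosen with earlier results of these data known. Ratios were checked on simulated counts. Promoters and gene positions come from RefSeq (GRCm38.p6). Alternatives changed the doublets, scale, pseudocount, count minimum and gates. The tools were scanpy 1.11.5 and scikit-learn 1.9.0, with scipy 1.17.1 and numpy 2.4.6 for intervals, pandas 2.3.3 and matplotlib 3.10.9 under Python 3.11.15 (seed 7).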

Additional observations from a re-analysis of the deposited data

How the results depend on the processing

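Counts of genes past the fold limit moved by more than 1.5 times under several choices, and the cause was not tested unless the choice itself sets it. For early S1 over S0-medium (1 higher and 2 lower), the counts were 2 and 1 without doublets, 0 and 1 with means over cells, 5 and 1 as UMIs per cell, 12 and 49 with a pseudocount of 1 CPM, 0 and 1 with an α-globin limit of 0.5%, 6 and 5 with one of 2%, 7 and 11 without cells within 20% of the CD71 limit, 1 and 1 at 5% mitochondrial UMIs, 5 and 4 with S0-medium below 1% α-globin, and 36 and 48 at 1.5-fold. The genes past 2-fold changed too. *Apol8* was no longer past it with means over cells, an α-globin limit of 0.5% or a lineage limit of 50, where *Alb* was the higher gene, and *Kit* was not in these 3 settings, without doublets, per cell or at 5% mitochondrial UMIs, whereas *Gm15915* was past it in each of them. For raised over early S1 (56 and 155), they were 12 and 1791 as UMIs per cell, 97 and 691 with a pseudocount of 1 CPM, 33 and 22 with a limit of 0.5%, 112 and 837 with one of 2%, and 281 lower genes at 5% mitochondrial UMIs. For S2 over early S1 (103 and 123), they were 28 and 1692 as UMIs per cell, 195 and 718 with a pseudocount of 1 CPM, 156 and 47 without globin in the denominator, and 2 and 0 with S2 below 1% α-globin. The lower genes there were 396 with means over cells, 246 and 68 with limits of 0.5% and 2%, 206 with a lineage limit of 50 and 244 at 5% mitochondrial UMIs. The share of S1 cells below the limit (72.4%) was 46.7% at 0.5%, 87.5% at 2% and 62.1% with *Hba-a1* alone at 0.5%. *Ttr* in raised over early S1 (log2 -1.27) turned to 0.97 at 5% mitochondrial UMIs and to 0.60 without hepatocyte-marker and *Hbb-y* cells, an alternative chosen after seeing the data, as was the fold of 1.5. Of 934 values of named genes and antibodies under alternatives, 639 stayed within the counting interval, 293 moved beyond it, and the 2 of *Ttr* reversed. Counted across these classes, 9 values changed sign, those 2 included. Median antibody counts of early S1 stayed within their intervals under the 3 alternatives run. Depth limits low genes, since 1 UMI in raised S1 is 0.874 CPM. No paired analysis was possible because there is 1 library.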

Other observations

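The split of UMIs between near-identical globin copies differed between stages, with the uncertainty that reads of such copies can be shared out by counting. *Hba-a1* had 13988 UMIs and *Hba-a2* 8319 in early S1, a ratio of 1.68 (counting interval 1.64 to 1.73), beside 1.02 (0.951 to 1.09) in the hepatocyte-like cells, 1.1 in S0-low, 1.27 in S0-medium, 1.7 in raised S1, 1.53 in S2 and 1.29 in S3. The intervals of early and raised S1 overlapped and those of S0-medium and early S1 did not. For the adult β-globin genes *Hbb-bs* and *Hbb-bt* the ratio was 1.67 in early S1 (1.64 to 1.69), the lowest of the 6 stages, beside 2.14 in S0-medium, 1.84 in raised S1, 2.03 in S3 and 2.74 in the hepatocyte-like cells. Both ratios in early S1 were therefore away from those of the free RNA that the hepatocyte-like cells carry.

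Some genes had their highest level in early S1. *Bbs9*, a gene of the Bardet-Biedl complex of cilia, was at 29.5 CPM in early S1, after 6.24 (S0-low) and 17.8 CPM (S0-medium) and before 14 (raised S1), 9.07 (S2) and 2.85 CPM (S3). *Arhgdig* was at 103 CPM in early S1, after 26.3 (S0-low) and 78.6 CPM (S0-medium) and before 63.8 (raised S1), 52.2 (S2) and 26.5 CPM (S3).

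Embryonic globin RNA in the S1 gate came mostly from 1 cell. Of 2514 *Hbb-y* UMIs in raised S1, 2300 lay in 1 cell, which also held 218 of the 250 *Hba-x* UMIs, while no early S1 cell reached 1% of *Hbb-y*. *Hbb-y* was at 135 CPM in early S1, 144 in S0-medium and 126 in the hepatocyte-like cells.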
